A study of Mus musculus with 18 samples.

Results

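The genes described here encode splicing factors, heterogeneous nuclear ribonucleoproteins (hnRNPs) and proteins of the small nuclear ribonucleoproteins (snRNPs). They were taken from the count table by symbol: Srsf followed by a digit, Hnrnp, Sf3a or Sf3b, Snrp, or Prpf at the start of the name. This rule, which uses no measured value, found 65 of 24602 gene rows, namely 20 hnRNPs, 13 Prpf proteins, 12 Snrp proteins, 11 SR proteins (Srsf) and 9 subunits of SF3a and SF3b. Spliceosome genes with other names, such as those beginning with Snrnp, are outside the rule.

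The counts came from RNA-seq of 18 mouse libraries, 3 in each of 6 groups, which combine nuclear or total RNA with 3 Nup93 genotypes in knock-in mice of a 129S1/SvlmJ background. Nup93 encodes a scaffold protein of the nuclear pore. The genotypes were wild type (WT, groups Nuclear_WT and Total_WT), heterozygous for the R388W allele (Nup93 R388W/+, Nuclear_Het and Total_Het) and homozygous for it (Nup93 R388W/R388W, Nuclear_Hom and Total_Hom). No treatment, age or time was given for any group. The labels name no promoter or Cre for the allele. The design text places the RNA in isolated podocytes, which wrap the capillaries of the kidney's filter, and names WT and homozygous mice only, while the sample labels say only mouse tissue. The labels do not tie replicates to different mice, and p-values here measure replicate spread that could be technical in part or whole.

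Libraries held 17.4 to 23.5 M counts, and the members together took 0.594% to 0.724% of them. Total_WT replicate 1 was used after subtracting the 9 nuclear columns, whose sum none of its genes lay below (0 genes). Markers of podocytes were far below those of tubule cells: 10 podocyte markers summed to group means of 405 to 618 CPM (a gene's count relative to the TMM-scaled total of its library), against 32100 to 62600 CPM for 10 proximal tubule markers. All 10 markers of each list were in the file and 0 of them were at 0 throughout. The proximal tubule list was Lrp2, Cubn, Slc34a1, Slc5a2, Aqp1, Gpx3, Kap, Slc22a6, Slc27a2 and Acsm2. For every marker list only the sum was taken, so a few abundant genes can carry it. In bulk RNA, fewer cells of a type and less RNA per cell cannot be told apart. Xist, the RNA of the inactive X chromosome, had group means of 346 CPM (Total_WT), 504 CPM (Nuclear_Hom) and 516 CPM (Nuclear_Het), and 0.538 to 1.25 CPM in the other 3 groups. The Y-linked Ddx3y was the reverse, with group means of 59.1 CPM (Total_Het), 65.9 CPM (Total_Hom) and 66.9 CPM (Nuclear_WT), and 0.266 to 0.795 CPM in the groups with high Xist. The labels give no sex. The group labels were taken as given, and an exchange of labels between Nuclear_WT and Total_WT was not tested. By Xist and Ddx3y the nuclear and the total RNA of each genotype came from animals of opposite sex, and within each fraction WT was opposite to both mutant groups. Every comparison with WT, and every comparison of nuclear with total RNA, therefore also compares the sexes, and genotype or fraction cannot be told apart from sex there. Hom against Het within a fraction does not have this split. Nup93 itself was read at group means of 15.9 to 22.6 CPM. Rn45s, the ribosomal RNA precursor, was uneven in Total_Hom (25800 ± 40800 CPM, SD, n = 3). It took 7.12% of the counts of replicate 2, against 0.25% and 0.227% in replicates 1 and 3. The median chi-square over genes of replicate 2 against the others was 4.28 and 4.32 times that of sampling noise, and 1.48 between those. This chi-square was scaled by raw totals, which hold Rn45s, and not by TMM. With Rn45s removed, 39 members were still called in total Hom against WT and 41 in total Hom against Het. Without replicate 2, 34 members were called in total Hom against Het in place of 41, and 32 in place of 39 in total Hom against WT. Leaving out replicate 1 or 3 of Total_Hom gave 39 and 36 in the first of these comparisons and 33 and 36 in the other. In nuclear against total RNA of Hom 32 were called without replicate 2 in place of 36. For the ratio of Hom against WT and Het it was 35 and 34 in place of 34 and 36.

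The spliceosome removes introns from precursor mRNA. It is built from snRNPs, each an snRNA with a ring of Sm proteins (Snrpb, Snrpd1, Snrpd2, Snrpd3, Snrpe, Snrpf and Snrpg) and particle-specific proteins, among them the SF3a and SF3b complexes of the U2 snRNP and many Prpf proteins of the U5 snRNP and the tri-snRNP. SR proteins bind exons and recruit this machinery, while hnRNPs coat nascent transcripts and often oppose it. These proteins work in the nucleus of all cell types, many SR and hnRNP proteins control the splicing of their own transcripts, and some shuttle with mRNA through the nuclear pore.

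Most members varied little across the 6 groups. Of the 65 genes, 63 averaged 5 CPM or more, and the same number passed the filter on low counts in each fit. The remaining members were nearly silent: Snrpn held 11 counts over all 18 libraries and Srsf12 held 64, so no change is given for either. Snrpn shares its transcription unit with Snurf, and counting by gene symbol can lose reads that both genes hold. Among the 63, the ratio of the highest to the lowest group mean had a median of 1.21, against 1.38 for the 11526 genes of at least 5 CPM. That ratio reached 1.5 in 4 members (6.35%, against 37.1% of those genes) and stayed under 1.2 in 30 members (47.6%, against 19.5%). The spread between replicates was small, with a median coefficient of variation within a group of 2.97% for the members and 3.6% for those genes. Summed over all members the level was between 6269 and 6758 CPM in every library.

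**Figure D1:**
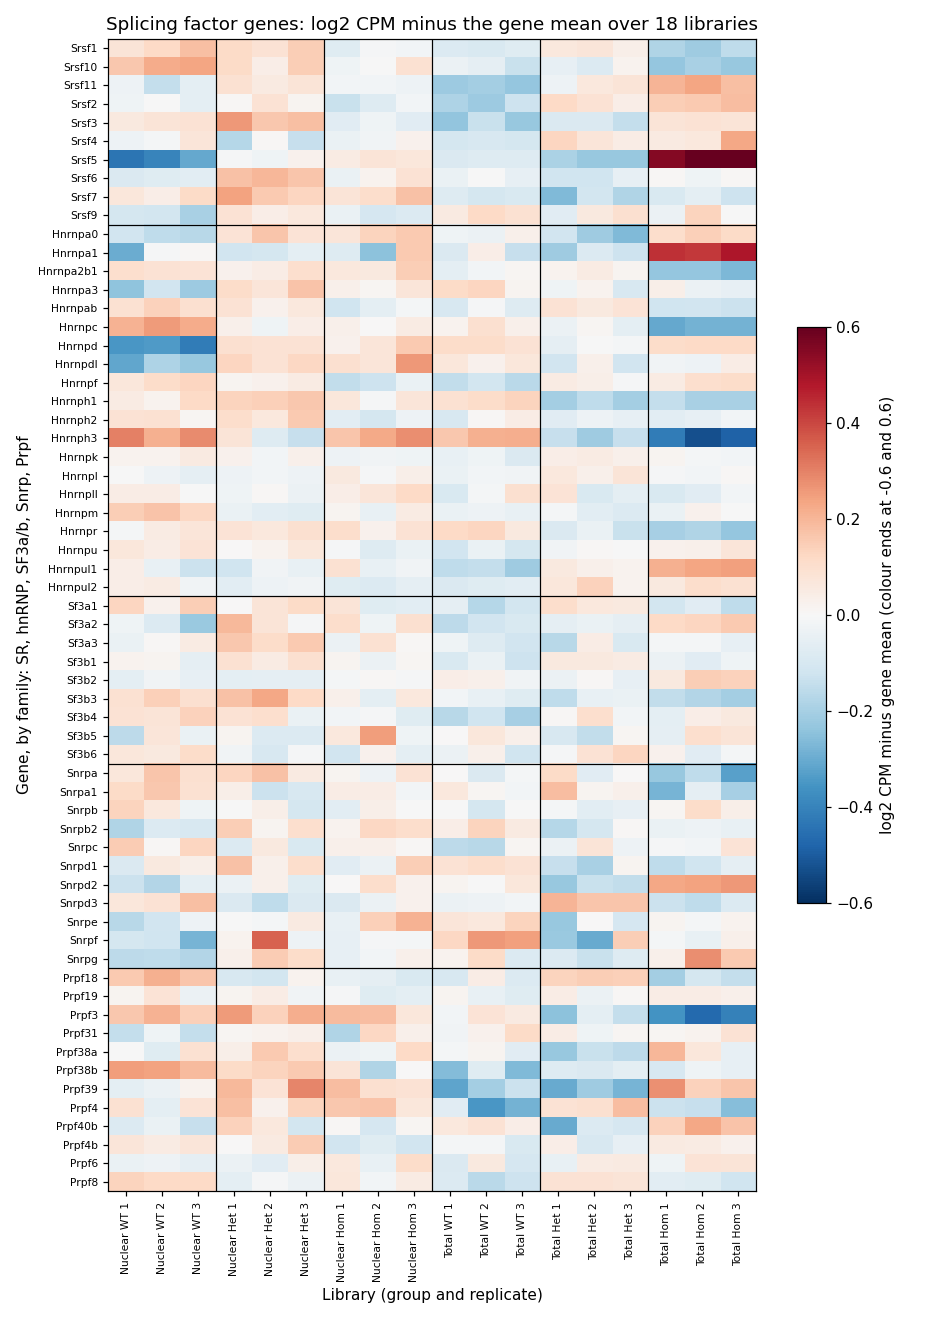
Heatmap of the members that averaged 5 CPM or more, with 1 left out (rows, by family) in the 18 libraries (columns); colour gives log2 CPM minus the gene's own mean, in log2 units. Most rows are pale, and the deep colours belong to a few genes, such as Srsf5, Hnrnpa1, Hnrnph3 and Prpf3 in Total_Hom and Hnrnpd in Nuclear_WT.

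Levels differed far more between members than between groups. Per kilobase of the deposited gene length, Hnrnpa2b1, an hnRNP that binds nascent RNA and sorts RNAs for transport, had the highest mean level, 243 CPM per kb. It was followed by the Sm protein gene Snrpd2 (146 CPM per kb), the poly(C)-binding Hnrnpk (116 CPM per kb) and Srsf5 (105 CPM per kb). Hnrnpa1 was low at 3.86 CPM per kb, although its protein is an abundant hnRNP. Hnrnpa1 and Hnrnpa3 have many processed pseudogenes in the mouse, and reads that match several places are often dropped, so the levels of both are uncertain. Not per length, Hnrnpa2b1 was measured at 624, 617 and 615 CPM in Nuclear_WT, 592, 600 and 623 in Nuclear_Het, 607, 605 and 645 in Nuclear_Hom, 558, 575 and 586 in Total_WT, 591, 602 and 588 in Total_Het and 496, 496 and 483 in Total_Hom. Total_Hom was the lowest group and did not overlap the others.

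Prpf8 had levels of 332, 329 and 329 CPM in Nuclear_WT, 291, 301 and 296 in Nuclear_Het, 317, 299 and 313 in Nuclear_Hom, 286, 271 and 278 in Total_WT, 322, 322 and 320 in Total_Het and 290, 288 and 279 in Total_Hom; the protein holds the catalytic core of the spliceosome in the U5 snRNP. Sf3b2 was at 212, 218 and 214 CPM in Nuclear_WT, 212, 213 and 213 in Nuclear_Het, 219, 222 and 220 in Nuclear_Hom, 227, 226 and 218 in Total_WT, 216, 222 and 214 in Total_Het and 230, 245 and 243 in Total_Hom; its product is a subunit of SF3b, which clamps the U2 snRNP to the branch site. Snrpb stood at 125, 119 and 112 CPM in Nuclear_WT, 114, 117 and 106 in Nuclear_Het, 109, 117 and 114 in Nuclear_Hom, 114, 106 and 114 in Total_WT, 113, 109 and 110 in Total_Het and 115, 123 and 117 in Total_Hom; it encodes the core Sm protein B. For Snrpb, Total_Hom lay above Total_WT and Total_Het, and every other pair of groups overlapped.

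Many members passed the test in each comparison, but few changed by much. The test was edgeR's quasi-likelihood test with Benjamini-Hochberg (BH) adjusted p under 0.05 over all genes tested. In total RNA, Hom against Het, 41 of 63 members passed, against 67% of all genes tested, and a change of 1.5-fold or more was seen in 2 (3.17%), against 23.2%. Of genes of at least 5 CPM, 73.3% passed, and 18.6% passed with a change of 1.5-fold or more. The median absolute log2 change was 0.11 for the members and 0.30 for all genes tested, or 0.26 for those of at least 5 CPM. In nuclear RNA, Hom against Het, 20 of 63 passed, against 43.2% of all genes tested and 46.3% of those of at least 5 CPM. The median absolute change there was 0.07 for the members and 0.14 for all genes tested, or 0.11 for those of at least 5 CPM. Since replicates differed by about 3% (biological coefficient of variation 3.05% in nuclear and 3.9% in total RNA), changes of a few percent were enough to pass.

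**Figure D2:**
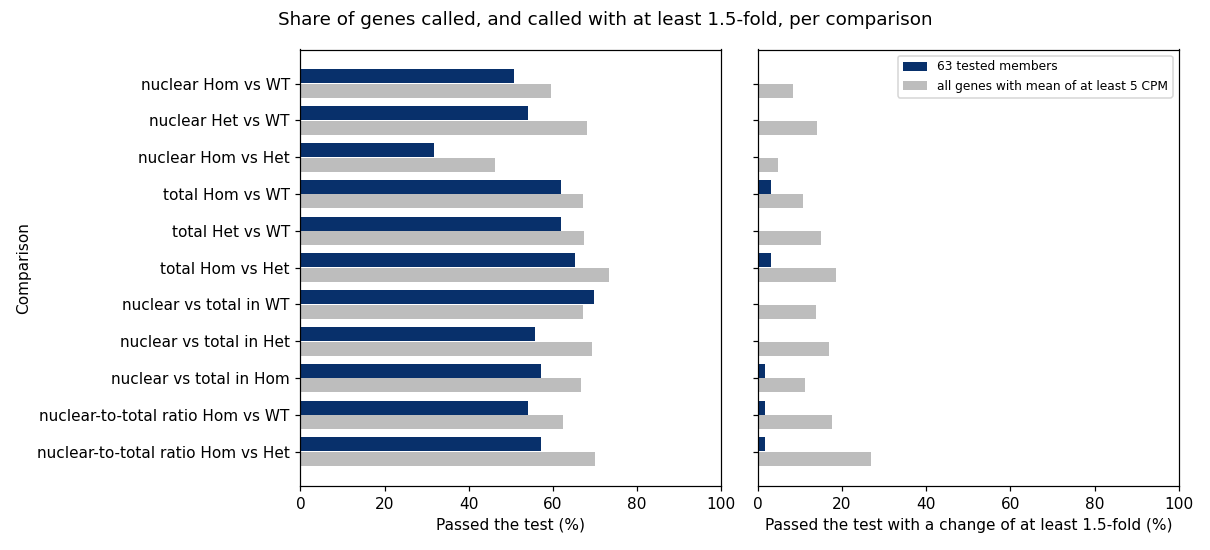
Bars give, for each of the 11 comparisons, the percent of the 63 members (dark) and of all genes that averaged 5 CPM or more (grey) that passed the edgeR test at adjusted p under 0.05 (left), and that passed with a change of at least 1.5-fold (right). On the left the dark bars run from 31.7% to 69.8% and are below the grey ones except for nuclear against total RNA in WT; on the right they stay at or under 3.17%.

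Total RNA of Hom and Het are described first, since Xist was low in both groups. Srsf5 showed the largest change of any member in any comparison, a rise of 1.78-fold in Total_Hom. Srsf5 encodes an SR protein that promotes exon inclusion. Srsf5 was measured at 126, 130 and 138 CPM in Nuclear_WT, 170, 168 and 174 in Nuclear_Het, 177, 180 and 179 in Nuclear_Hom, 161, 162 and 162 in Total_WT, 150, 146 and 146 in Total_Het and 250, 267 and 266 in Total_Hom. All 3 Total_Hom libraries lay above the other 15, and Nuclear_WT was the lowest group. The change from Het to Hom was log2 0.83 ± 0.03 SE, edgeR adjusted p = 9.09e-62, and log2 0.81 without Total_Hom replicate 2. Of the 63 members 23 rose and 18 fell, against 32.9% and 34.1% of all genes tested. Proximal tubule markers summed to 62600 CPM in Total_Het and 33600 CPM in Total_Hom. Podocyte markers went the other way (405 and 606 CPM), as did endothelial (726 and 1000 CPM) and distal nephron markers (9490 and 10300 CPM), while immune markers summed to 942 and 933 CPM. The part of these markers in these changes was not tested.

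Hnrnpa1, Prpf39 and Snrpd2 were the next largest rises. Hnrnpa1 had levels of 6.79, 8.3 and 8.4 CPM in Nuclear_WT, 7.72, 7.77 and 8.02 in Nuclear_Het, 7.92, 7.04 and 9.3 in Nuclear_Hom, 7.86, 8.59 and 7.6 in Total_WT, 7.21, 7.88 and 7.67 in Total_Het and 11.3, 11.2 and 11.7 in Total_Hom. Total_Hom did not overlap any other group (log2 0.59 ± 0.10 SE, edgeR adjusted p = 1.13e-07). Prpf39 was at 29.8, 30.3 and 31.5 CPM in Nuclear_WT, 35.5, 32.9 and 38 in Nuclear_Het, 35.3, 33.2 and 33 in Nuclear_Hom, 24.9, 27 and 28.4 in Total_WT, 25.2, 26.8 and 25.6 in Total_Het and 37.6, 34.2 and 34.8 in Total_Hom; its protein belongs to the U1 snRNP. Here Total_Hom lay in the range of the nuclear groups of mutant mice, and Total_WT and Total_Het were low (log2 0.46 ± 0.06 SE, edgeR adjusted p = 1.25e-12). Snrpd2 stood at 64.9, 62.8 and 68.1 CPM in Nuclear_WT, 69.3, 72.4 and 67.5 in Nuclear_Het, 71.1, 76.3 and 72.2 in Nuclear_Hom, 71.8, 70.8 and 74.3 in Total_WT, 60.7, 64.7 and 64.1 in Total_Het and 83.4, 83.8 and 85.1 in Total_Hom. The Sm protein gene was highest in Total_Hom, without overlap, and lowest in Total_Het (log2 0.42 ± 0.04 SE, edgeR adjusted p = 7.58e-22).

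**Figure D3:**
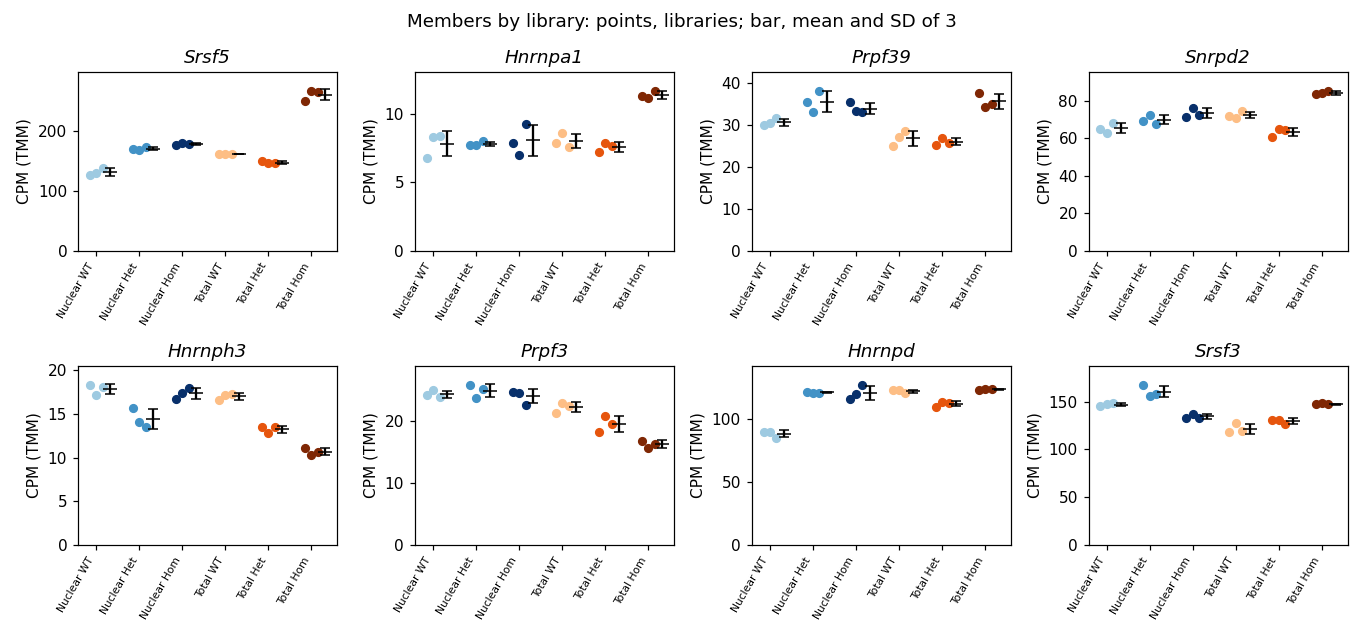
Level of 8 members in CPM (TMM scaled, axes from 0) for each library, by group; black marks give the mean and SD of 3 libraries. Srsf5, Hnrnpa1 and Snrpd2 are highest in Total_Hom, Hnrnph3 and Prpf3 are lowest there, Hnrnpd is lowest in Nuclear_WT, and Srsf3 is highest in Nuclear_Het.

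Because these 4 genes rose in the same comparison, the 250 bases before their annotated starts are shown (RefSeq, GRCm38.p6, plus strand, whereas the counts were made on mm9). Capitals mark GC boxes (GGGCGG, or CCGCCC on the other strand) and CCAAT boxes (CCAAT or ATTGG).
Srsf5 (chr12:80945249-80945498): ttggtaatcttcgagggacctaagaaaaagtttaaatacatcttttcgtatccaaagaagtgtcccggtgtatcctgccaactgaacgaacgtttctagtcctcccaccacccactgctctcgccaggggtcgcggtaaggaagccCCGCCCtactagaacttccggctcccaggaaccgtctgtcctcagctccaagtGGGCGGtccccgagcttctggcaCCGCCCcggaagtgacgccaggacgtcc
Hnrnpa1 (chr15:103240147-103240396): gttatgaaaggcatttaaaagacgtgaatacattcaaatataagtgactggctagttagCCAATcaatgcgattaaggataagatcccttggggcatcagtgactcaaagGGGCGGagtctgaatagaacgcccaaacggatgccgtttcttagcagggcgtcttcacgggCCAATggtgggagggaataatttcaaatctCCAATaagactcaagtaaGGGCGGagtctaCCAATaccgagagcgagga
Prpf39 (chr12:65036084-65036333): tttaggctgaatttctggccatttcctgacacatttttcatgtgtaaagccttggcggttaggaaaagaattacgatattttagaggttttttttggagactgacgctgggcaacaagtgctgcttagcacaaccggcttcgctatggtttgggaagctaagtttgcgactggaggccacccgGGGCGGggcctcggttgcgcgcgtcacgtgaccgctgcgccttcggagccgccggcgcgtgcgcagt
Snrpd2 (chr7:19149588-19149837): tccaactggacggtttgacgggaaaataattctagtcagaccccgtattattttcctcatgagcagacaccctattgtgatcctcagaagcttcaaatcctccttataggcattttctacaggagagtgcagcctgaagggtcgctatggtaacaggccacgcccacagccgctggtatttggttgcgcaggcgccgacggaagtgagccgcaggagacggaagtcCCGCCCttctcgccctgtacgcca
A GC box was found in all 4, with 3 in Srsf5, 2 in Hnrnpa1, 1 in Prpf39 and 1 in Snrpd2. Of the 32851 RefSeq promoters of this length 32.7% hold one, and of 77 promoters of the 57 members found there a GC box is in 48 (62.3%). CCAAT boxes were found in Hnrnpa1 (4) and in 35 of the 77 member promoters (45.5%), against 33.8% of all. The CRE half-site, spelled TGACG and searched on both strands, was found in Srsf5 (1), Prpf39 (2) and Snrpd2 (1), in 28 of the 77 (36.4%) and in 17.8% of all promoters. The E-box CACGTG, which in Prpf39 overlaps one of those half-sites, was found in Prpf39 (1 match), in 8 of the 77 (10.4%) and in 6.02% of all promoters. A match is a description of the letters and shows no binding.

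The falls in total Hom against Het were smaller. Hnrnph3 was measured at 18.3, 17.2 and 18.1 CPM in Nuclear_WT, 15.7, 14.1 and 13.5 in Nuclear_Het, 16.7, 17.4 and 18 in Nuclear_Hom, 16.6, 17.2 and 17.3 in Total_WT, 13.5, 12.8 and 13.5 in Total_Het and 11.1, 10.3 and 10.6 in Total_Hom. The gene encodes a member of the hnRNP H family, and it was lowest in Total_Hom, without overlap, with Total_Het and Nuclear_Het next (log2 -0.31 ± 0.09 SE, edgeR adjusted p = 0.00125). Snrpd3 had levels of 65.8, 66.8 and 71.1 CPM in Nuclear_WT, 59.2, 56.5 and 59.2 in Nuclear_Het, 59.1, 61.2 and 63.9 in Nuclear_Hom, 61.2, 61.4 and 62.1 in Total_WT, 72.3, 70.6 and 70.4 in Total_Het and 57.5, 56.5 and 59.4 in Total_Hom. This Sm protein gene was high in Total_Het and Nuclear_WT and lower elsewhere (log2 -0.29 ± 0.04 SE, edgeR adjusted p = 1.44e-11). These 2 groups had the highest proximal tubule marker sums (62600 and 53500 CPM), whose part in the levels of Snrpd3 was not tested. Snrpd2 and Snrpd3 both encode proteins of the Sm ring, and in this comparison the first rose and the other fell.

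Prpf4 was at 34.1, 30.7 and 33.9 CPM in Nuclear_WT, 36.3, 32.6 and 35.1 in Nuclear_Het, 35.8, 36.1 and 33.6 in Nuclear_Hom, 30.5, 25.1 and 26.3 in Total_WT, 34, 34.2 and 36.4 in Total_Het and 29.3, 29.1 and 26.8 in Total_Hom. Its protein belongs to the U4/U6 snRNP, and Total_Het was above Total_Hom and Total_WT without overlap (log2 -0.29 ± 0.06 SE, edgeR adjusted p = 3.34e-06). Prpf18 stood at 51.8, 54 and 52.2 CPM in Nuclear_WT, 43.5, 43.1 and 47.2 in Nuclear_Het, 45.1, 44.8 and 43.6 in Nuclear_Hom, 43.5, 48 and 43.9 in Total_WT, 51.1, 51.6 and 51.4 in Total_Het and 40.4, 43.2 and 42.1 in Total_Hom. Prpf18 acts in the second catalytic step of splicing, and it was high in the same groups as Snrpd3 (log2 -0.29 ± 0.05 SE, edgeR adjusted p = 2.44e-08). With library totals alone in place of TMM, 44 members passed higher and 5 lower in this comparison, and the fall of Hnrnph3 no longer passed (log2 -0.16, edgeR adjusted p = 0.137).

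By family, total Hom against Het had 6 of 10 SR proteins higher and 2 lower, 5 of 20 hnRNPs higher and 6 lower, 3 of 9 SF3a and SF3b subunits higher and 3 lower, 4 of 11 Snrp proteins higher and 3 lower, and 5 of 13 Prpf proteins higher and 4 lower. The median log2 change was 0.09 for SR proteins and 0.04 for all members, against 0.01 for all genes tested. With TMM, members therefore moved both ways within each family. With library totals alone 8 SR proteins were higher and 0 lower, and 5 SF3a and SF3b subunits were higher and 0 lower. That scaling also gave 7 Snrp proteins higher and 1 lower, 15 hnRNPs higher and 2 lower, and 9 Prpf proteins higher and 2 lower. Groups did not overlap for 38 of the 63 members (60.3%), against 68.7% of all genes tested.

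Total RNA of Hom and WT were compared next, with the same Total_Hom libraries as above, and with high Xist in Total_WT (346 CPM) against 1.25 CPM in Total_Hom. Of 63 members 24 rose and 15 fell, against 30.6% and 31% of all genes tested. The rises were led by Srsf5 (log2 0.70 ± 0.03 SE, edgeR adjusted p = 2.78e-53), Hnrnpa1 (log2 0.52 ± 0.10 SE, edgeR adjusted p = 1.73e-06), Srsf11 and Prpf39 (log2 0.41 ± 0.06 SE, edgeR adjusted p = 3.17e-11). Srsf11 was measured at 103, 95.2 and 101 CPM in Nuclear_WT, 112, 109 and 111 in Nuclear_Het, 104, 104 and 103 in Nuclear_Hom, 90.3, 91.2 and 89.4 in Total_WT, 103, 110 and 111 in Total_Het and 121, 124 and 119 in Total_Hom. Srsf11 encodes an SR-related factor that contacts U1 and U2 components, and its 3 Total_WT libraries were the lowest of all 18 (log2 0.43 ± 0.03 SE, edgeR adjusted p = 1.43e-25).

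Falls in total Hom against WT were led by Hnrnph3 (log2 -0.67 ± 0.08 SE, edgeR adjusted p = 2.12e-12), a fall of 1.59-fold, and Prpf3. Prpf3 had levels of 24.1, 24.9 and 23.8 CPM in Nuclear_WT, 25.7, 23.7 and 25.1 in Nuclear_Het, 24.6, 24.5 and 22.6 in Nuclear_Hom, 21.3, 22.8 and 22.4 in Total_WT, 18.2, 20.7 and 19.5 in Total_Het and 16.8, 15.6 and 16.3 in Total_Hom. The gene encodes a U4/U6 snRNP protein, and Total_Hom was the lowest group without overlap (log2 -0.44 ± 0.07 SE, edgeR adjusted p = 3.59e-08). Hnrnpc was at 174, 180 and 176 CPM in Nuclear_WT, 154, 148 and 155 in Nuclear_Het, 154, 151 and 156 in Nuclear_Hom, 153, 161 and 154 in Total_WT, 147, 152 and 145 in Total_Het and 122, 124 and 124 in Total_Hom. Hnrnpc binds uridine tracts in introns, and it was lowest in Total_Hom and highest in Nuclear_WT (log2 -0.33 ± 0.03 SE, edgeR adjusted p = 1.62e-20). Hnrnpr stood at 88, 91.9 and 93.2 CPM in Nuclear_WT, 93.8, 92.8 and 94.8 in Nuclear_Het, 95.6, 90.3 and 94.3 in Nuclear_Hom, 96.4, 97 and 92.3 in Total_WT, 83.7, 86.2 and 80.8 in Total_Het and 77.2, 78.4 and 75.6 in Total_Hom. Total_Hom was again the lowest group, without overlap (log2 -0.30 ± 0.03 SE, edgeR adjusted p = 4.64e-15).

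In total RNA of Het against WT the changes ran from -0.36 to 0.35 on the log2 scale, with a median absolute change of 0.12 and 39 members called, against 61.1% of all genes tested. Of these 22 were higher and 17 lower, against 30.9% and 30.3% of all genes tested. Prpf4 led the rises (log2 0.35 ± 0.06 SE, edgeR adjusted p = 4.25e-08), followed by Srsf11 (log2 0.26 ± 0.03 SE, edgeR adjusted p = 6.80e-12), Srsf2 and Hnrnpul1. Srsf2 was measured at 135, 137 and 132 CPM in Nuclear_WT, 138, 146 and 139 in Nuclear_Het, 125, 130 and 136 in Nuclear_Hom, 121, 118 and 126 in Total_WT, 149, 146 and 141 in Total_Het and 152, 153 and 156 in Total_Hom. Srsf2, an SR protein of nuclear speckles, lay higher in all Total_Het than in all Total_WT libraries (log2 0.26 ± 0.03 SE, edgeR adjusted p = 1.07e-13). Hnrnpul1 had levels of 143, 135 and 127 CPM in Nuclear_WT, 128, 137 and 135 in Nuclear_Het, 148, 135 and 137 in Nuclear_Hom, 125, 126 and 120 in Total_WT, 145, 142 and 141 in Total_Het and 161, 164 and 165 in Total_Hom. The hnRNP U-like gene was highest in Total_Hom, and Total_Het lay above Total_WT without overlap (log2 0.21 ± 0.03 SE, edgeR adjusted p = 3.37e-10).

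Hnrnph3 led the falls here too (log2 -0.36 ± 0.08 SE, edgeR adjusted p = 6.87e-05), and Total_Het lay below Total_WT in all 3 libraries. Snrpf was at 8.38, 8.3 and 7.42 CPM in Nuclear_WT, 9.14, 11.5 and 8.82 in Nuclear_Het, 8.71, 8.97 and 8.93 in Nuclear_Hom, 9.83, 10.8 and 10.7 in Total_WT, 7.72, 7.3 and 9.98 in Total_Het and 8.93, 8.75 and 9.2 in Total_Hom. At this low level Total_Het and Total_WT overlapped (log2 -0.33 ± 0.10 SE, edgeR adjusted p = 0.00353). Hnrnph1 stood at 161, 158 and 169 CPM in Nuclear_WT, 171, 172 and 174 in Nuclear_Het, 163, 155 and 164 in Nuclear_Hom, 166, 168 and 171 in Total_WT, 135, 140 and 135 in Total_Het and 141, 136 and 136 in Total_Hom. The G-tract binding hnRNP H1 gene was lower in both mutant groups of total RNA than in the other 4 groups, without overlap (log2 -0.30 ± 0.03 SE, edgeR adjusted p = 3.72e-18). Prpf40b was measured at 27.9, 28.8 and 26.9 CPM in Nuclear_WT, 32.6, 30.9 and 27.4 in Nuclear_Het, 29.7, 27.6 and 29.8 in Nuclear_Hom, 30.9, 31.4 and 30.4 in Total_WT, 24, 27.9 and 27.6 in Total_Het and 32.6, 34.7 and 33.3 in Total_Hom. It encodes a relative of a U1 snRNP factor and was lowest in Total_Het (log2 -0.22 ± 0.06 SE, edgeR adjusted p = 4.73e-04). With the deposited column of Total_WT replicate 1 the calls of Prpf4 (log2 0.26) and Snrpf (-0.27) were lost, and Snrpf was also lost without Total_Het replicate 2 (-0.24). That column lowered the members called from 39 to 26. It left 11 higher and 15 lower, and leaving out genes under 5 CPM gave 19 higher and 22 lower, so the majority turned under both. The majority also turned without Total_WT replicate 3, with 18 higher and 19 lower. With library totals alone 1 member passed higher and 41 lower, and the rises of Srsf11 (0.08), Srsf2 (0.08) and Hnrnpul1 (0.03) were lost. Xist was high in Total_WT, and the proximal tubule sum was 34500 CPM there against 62600 CPM in Total_Het, whose part in these changes was not tested.

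Nuclear RNA of Hom and Het, with Xist high in both, had the smallest median absolute change of the 11 comparisons (0.07). Changes ran from -0.25 to 0.26 on the log2 scale. Of 63 members 3 rose and 17 fell, against 21.4% and 21.8% of all genes tested. Immune markers summed to 1500 CPM in Nuclear_Het and 505 CPM in Nuclear_Hom, and their part in these changes was not tested. SR proteins made up 6 of the 17 falls, led by Srsf3. Srsf3 had levels of 145, 147 and 148 CPM in Nuclear_WT, 167, 156 and 158 in Nuclear_Het, 133, 137 and 133 in Nuclear_Hom, 118, 127 and 119 in Total_WT, 131, 131 and 126 in Total_Het and 147, 148 and 147 in Total_Hom. Srsf3 encodes the smallest SR protein, which also serves in mRNA export, and Nuclear_Het was its highest group without overlap (log2 -0.25 ± 0.03 SE, edgeR adjusted p = 2.62e-11). In total RNA the same gene went the other way, higher in Hom than in Het (log2 0.19).

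Hnrnph2 was at 88.2, 88.3 and 83.7 CPM in Nuclear_WT, 89.3, 86.6 and 92.5 in Nuclear_Het, 79.5, 77 and 81.3 in Nuclear_Hom, 77.6, 83.5 and 85.7 in Total_WT, 79.1, 81.3 and 80.1 in Total_Het and 79.3, 80.2 and 82.1 in Total_Hom. Hnrnph2, the X-linked member of the hnRNP H family, was lower in all Nuclear_Hom than in all Nuclear_Het libraries (log2 -0.18 ± 0.04 SE, edgeR adjusted p = 5.22e-05). Prpf4b stood at 73.1, 71.8 and 73 CPM in Nuclear_WT, 69.5, 72 and 77.2 in Nuclear_Het, 64.1, 66.1 and 64.2 in Nuclear_Hom, 68.9, 69 and 65.1 in Total_WT, 71.4, 65 and 67.1 in Total_Het and 72.1, 71.8 and 70.7 in Total_Hom. Prpf4b encodes a kinase that phosphorylates tri-snRNP proteins, and Nuclear_Hom was its lowest group, without overlap with Nuclear_Het (log2 -0.17 ± 0.04 SE, edgeR adjusted p = 1.78e-04).

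The 3 rises were small. Hnrnph3 rose in Nuclear_Hom (log2 0.26 ± 0.08 SE, edgeR adjusted p = 0.00264). Sf3b5 was measured at 28.7, 33.6 and 31.1 CPM in Nuclear_WT, 32.4, 30.2 and 30.2 in Nuclear_Het, 33.4, 38.1 and 31.4 in Nuclear_Hom, 32, 33.5 and 32.7 in Total_WT, 29.9, 28.9 and 32.2 in Total_Het and 30.8, 34.3 and 33.7 in Total_Hom. This small SF3b subunit gene passed narrowly, and Nuclear_Hom overlapped Nuclear_Het (log2 0.15 ± 0.06 SE, edgeR adjusted p = 0.0291). Its call was lost with DESeq2 (adjusted p = 0.0976), with library totals alone (0.179), with genes under 5 CPM left out (0.0506) and on leaving out Nuclear_Het replicate 2 (0.1) or 3 (0.0837), and the log2 value was 0.06 without Nuclear_Hom replicate 2. Prpf8 rose by log2 0.07 ± 0.03 SE, edgeR adjusted p = 0.033, which was lost with library totals alone (log2 0.01), with genes under 5 CPM left out (0.05) and on leaving out Nuclear_Het replicate 1 (0.05) or Nuclear_Hom replicate 1 (0.05) or 3 (0.05). Of the 11 Snrp proteins tested 0 passed with edgeR, 0 at an unadjusted p under 0.05 and 0 with DESeq2, but 3 were called lower with library totals alone. With that scaling 1 member in all was called higher and 28 lower.

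**Figure D4:**
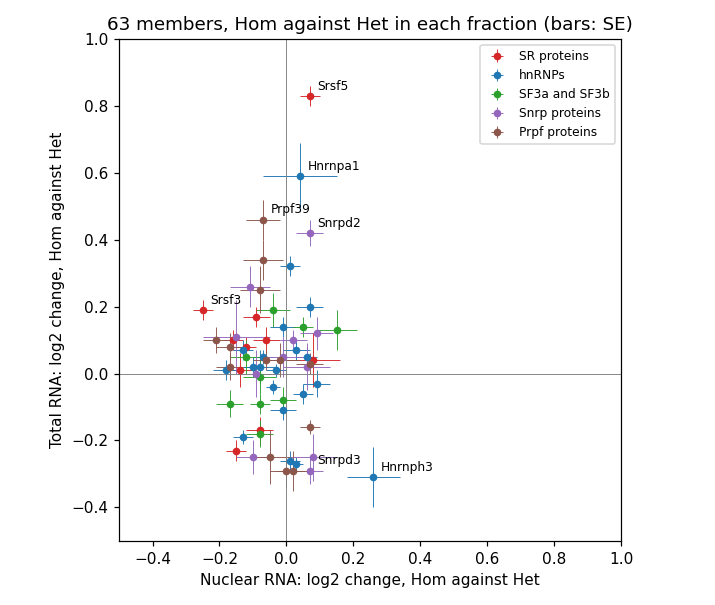
Each of the 63 members as a point, with its log2 change of Hom against Het in nuclear RNA (x) and in total RNA (y), coloured by family; bars are SE from the fits. The points spread further along the total axis (-0.31 to 0.83) than along the nuclear axis (-0.25 to 0.26).

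In nuclear RNA of Hom against WT 13 members rose and 19 fell, against 26.5% and 27.8% of all genes tested. The rises were led by Hnrnpd and Srsf5. Hnrnpd had levels of 89.6, 90.1 and 85.2 CPM in Nuclear_WT, 122, 121 and 121 in Nuclear_Het, 116, 120 and 127 in Nuclear_Hom, 123, 123 and 121 in Total_WT, 110, 114 and 113 in Total_Het and 123, 124 and 124 in Total_Hom. Hnrnpd encodes an AU-rich element binding protein that promotes mRNA decay, and Nuclear_WT was far below the other 5 groups, which lay close together (log2 0.45 ± 0.04 SE, edgeR adjusted p = 7.29e-20). Srsf5 rose as well (log2 0.45 ± 0.03 SE, edgeR adjusted p = 2.17e-23). Hnrnpdl was at 64.7, 70.6 and 68.6 CPM in Nuclear_WT, 87.8, 85.2 and 87.4 in Nuclear_Het, 85.7, 84.4 and 96.1 in Nuclear_Hom, 84.1, 81.6 and 84.2 in Total_WT, 74.2, 81.9 and 74 in Total_Het and 79.1, 78.7 and 82.9 in Total_Hom. Hnrnpdl, the closest relative of Hnrnpd, was lowest in Nuclear_WT without overlap (log2 0.39 ± 0.04 SE, edgeR adjusted p = 8.54e-14). Hnrnpa0 stood at 121, 118 and 117 CPM in Nuclear_WT, 139, 147 and 139 in Nuclear_Het, 138, 144 and 146 in Nuclear_Hom, 129, 128 and 134 in Total_WT, 121, 113 and 109 in Total_Het and 141, 145 and 142 in Total_Hom. Nuclear_Hom and Nuclear_Het lay above Nuclear_WT (log2 0.26 ± 0.03 SE, edgeR adjusted p = 2.99e-11).

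Falls in nuclear Hom against WT reached -0.26. Prpf38b was measured at 91.7, 91.1 and 87.8 CPM in Nuclear_WT, 83.4, 84.4 and 85.8 in Nuclear_Het, 81.2, 67.9 and 77.2 in Nuclear_Hom, 64.4, 73.3 and 64.2 in Total_WT, 73.1, 72.5 and 74 in Total_Het and 72.1, 75.7 and 74.4 in Total_Hom. Prpf38b, a relative of a tri-snRNP maturation factor, was highest in Nuclear_WT without overlap (log2 -0.26 ± 0.04 SE, edgeR adjusted p = 1.23e-07). Prpf18 (log2 -0.24 ± 0.05 SE, edgeR adjusted p = 4.26e-06) and Hnrnpc (log2 -0.20 ± 0.03 SE, edgeR adjusted p = 1.13e-08) were likewise highest in Nuclear_WT. Hnrnpf had levels of 136, 140 and 142 CPM in Nuclear_WT, 131, 132 and 134 in Nuclear_Het, 117, 119 and 126 in Nuclear_Hom, 117, 120 and 116 in Total_WT, 134, 133 and 129 in Total_Het and 134, 139 and 140 in Total_Hom. Hnrnpf binds G tracts, and Nuclear_Hom lay below Nuclear_WT without overlap (log2 -0.21 ± 0.03 SE, edgeR adjusted p = 4.99e-08). Nuclear_WT had low Xist (0.538 CPM) and a proximal tubule sum of 53500 CPM, against 504 and 34100 CPM in Nuclear_Hom. With library totals alone 33 members passed higher and 4 lower, and with genes under 5 CPM left out 20 passed higher and 14 lower, so that the majority turned.

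Nuclear Het against WT shares the WT libraries with that comparison. Of 63 members 21 rose and 13 fell, against 32.8% and 31.7% of all genes tested. Hnrnpd (log2 0.46 ± 0.04 SE, edgeR adjusted p = 1.84e-20), Srsf5 (log2 0.38 ± 0.03 SE, edgeR adjusted p = 1.49e-19), Hnrnpdl (log2 0.36 ± 0.04 SE, edgeR adjusted p = 1.44e-12) and Hnrnpa3 led the rises. Hnrnpa3 was at 28.4, 31 and 28.9 CPM in Nuclear_WT, 36.2, 35.3 and 37.8 in Nuclear_Het, 34.3, 33.8 and 35.3 in Nuclear_Hom, 36.3, 36.7 and 33.9 in Total_WT, 33, 34 and 31.4 in Total_Het and 34.4, 32.7 and 32.4 in Total_Hom. Hnrnpa3, of the hnRNP A/B family, was lowest in Nuclear_WT, without overlap (log2 0.31 ± 0.05 SE, edgeR adjusted p = 4.60e-07). Among the falls were Hnrnph3 (log2 -0.30 ± 0.08 SE, edgeR adjusted p = 3.07e-04), Prpf18 (log2 -0.24 ± 0.05 SE, edgeR adjusted p = 4.02e-06), Snrpd3 (log2 -0.22 ± 0.04 SE, edgeR adjusted p = 3.49e-06) and Hnrnpc (log2 -0.21 ± 0.03 SE, edgeR adjusted p = 1.73e-09). With library totals alone 50 members passed higher and 0 lower, and these 4 falls were lost (log2 -0.13, -0.06, -0.04 and -0.03). With genes under 5 CPM left out 30 passed higher and 6 lower. Xist was 0.538 CPM in Nuclear_WT and 516 CPM in Nuclear_Het, immune markers summed to 547 and 1500 CPM, and proximal tubule markers to 53500 and 32100 CPM. The part of these cell markers in the result was not tested.

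Nuclear and total RNA were compared within each genotype to see how member transcripts divide between the fractions. Malat1, a noncoding RNA retained in the nucleus, did not mark the nuclear libraries, at 1740 CPM in Nuclear_WT and 2320 CPM in Total_WT, 2360 and 2030 CPM in Het, and 2080 and 2140 CPM in Hom. In WT 30 members were higher in nuclear RNA and 14 lower, against 30.9% and 30.8% of all genes tested, or 5 and 26 with library totals alone and 24 and 18 with genes under 5 CPM left out. In Het 27 were higher and 8 lower, against 33.4% and 30.2%, or 58 and 0 with library totals alone and 33 and 4 with genes under 5 CPM left out. In Hom 19 were higher and 17 lower, against 30.5% and 29.8%. With library totals alone it was 16 and 17, and with genes under 5 CPM left out 16 and 18. Without Total_Hom replicate 1 it was 15 and 18, so the majority in Hom turned under each of these. Sex, as read from Xist and the Y-linked genes, differs between the fractions in every genotype. Proximal tubule markers summed to 53500 CPM in nuclear and 34500 CPM in total RNA of WT, to 32100 and 62600 CPM in Het and to 34100 and 33600 CPM in Hom. Immune markers summed to 547 and 773 CPM in WT, 1500 and 942 CPM in Het and 505 and 933 CPM in Hom, and the part of either list in these counts was not tested.

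In WT the nuclear libraries were higher for Prpf38b (log2 0.43 ± 0.04 SE, edgeR adjusted p = 1.36e-13), Srsf10, Srsf3 (log2 0.27 ± 0.03 SE, edgeR adjusted p = 5.15e-14) and Prpf4 (log2 0.27 ± 0.06 SE, edgeR adjusted p = 2.32e-05). Srsf10 stood at 71.9, 75 and 75.7 CPM in Nuclear_WT, 69.6, 66.1 and 71.3 in Nuclear_Het, 63.2, 64.1 and 68.5 in Nuclear_Hom, 62.8, 61.9 and 58.6 in Total_WT, 62.1, 60.7 and 65.2 in Total_Het and 54.8, 56.1 and 54.9 in Total_Hom. Srsf10 encodes an SR protein that represses splicing when dephosphorylated, and in each genotype its nuclear libraries lay above its total ones. The nuclear libraries of WT were lower for Hnrnpd (log2 -0.47 ± 0.03 SE, edgeR adjusted p = 1.31e-27), Snrpf (log2 -0.38 ± 0.10 SE, edgeR adjusted p = 7.70e-04), Srsf5 (log2 -0.30 ± 0.03 SE, edgeR adjusted p = 1.69e-17) and Hnrnpdl (log2 -0.30 ± 0.04 SE, edgeR adjusted p = 6.68e-11). The call of Prpf4 was lost with library totals alone (log2 0.11) and with the deposited column of Total_WT replicate 1 (0.18).

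In Het the nuclear libraries were higher for Prpf39 (log2 0.45 ± 0.06 SE, edgeR adjusted p = 8.99e-12), Srsf7, Prpf3 (log2 0.35 ± 0.07 SE, edgeR adjusted p = 1.17e-06) and Hnrnph1 (log2 0.33 ± 0.03 SE, edgeR adjusted p = 7.68e-20). Srsf7 was measured at 81.7, 80.2 and 84.3 CPM in Nuclear_WT, 92.2, 87 and 85.3 in Nuclear_Het, 82.2, 83.9 and 88 in Nuclear_Hom, 73.9, 72.4 and 73.1 in Total_WT, 64.8, 72.1 and 68.7 in Total_Het and 73.1, 74.8 and 71.6 in Total_Hom. Srsf7 encodes an SR protein with a zinc knuckle that also adapts mRNA for export, and the 9 nuclear libraries all lay above the 9 total ones. Lower in nuclear RNA of Het were Snrpd3 (log2 -0.29 ± 0.04 SE, edgeR adjusted p = 1.28e-10), Prpf18 (log2 -0.21 ± 0.05 SE, edgeR adjusted p = 5.38e-05), Srsf4 and Prpf8 (log2 -0.12 ± 0.02 SE, edgeR adjusted p = 9.65e-06). Srsf4 had levels of 14.3, 14.5 and 15.4 CPM in Nuclear_WT, 13, 14.7 and 13.3 in Nuclear_Het, 14.2, 14.4 and 14.9 in Nuclear_Hom, 13.6, 13.7 and 13.6 in Total_WT, 16, 15.4 and 15.1 in Total_Het and 15.2, 15.3 and 17.2 in Total_Hom. Srsf4, a large SR protein gene, was called narrowly (log2 -0.18 ± 0.08 SE, edgeR adjusted p = 0.0423). Its call was lost with DESeq2 (adjusted p = 0.0588), with no low-count filter (0.0587), with genes under 5 CPM left out (0.0881), and without Nuclear_Het replicate 1 (0.164) or 3 (0.116) or Total_Het replicate 1 (0.148), 2 (0.0754) or 3 (0.0549). With library totals alone Srsf4 (log2 0.02) and Prpf8 (0.08) turned positive, and the falls of Snrpd3 (-0.09) and Prpf18 (0.00) were lost.

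In Hom the nuclear libraries were higher for Hnrnph3 (log2 0.70 ± 0.08 SE, edgeR adjusted p = 2.37e-14), Prpf3 (log2 0.56 ± 0.07 SE, edgeR adjusted p = 2.77e-13), Hnrnpa2b1 (log2 0.33 ± 0.02 SE, edgeR adjusted p = 1.29e-30) and Hnrnpc (log2 0.32 ± 0.03 SE, edgeR adjusted p = 1.76e-18). They were lower for Srsf5 (log2 -0.55 ± 0.03 SE, edgeR adjusted p = 1.94e-39), Hnrnpa1 (log2 -0.51 ± 0.10 SE, edgeR adjusted p = 3.83e-06), Srsf2 (log2 -0.24 ± 0.03 SE, edgeR adjusted p = 1.83e-11) and Srsf11 (log2 -0.23 ± 0.03 SE, edgeR adjusted p = 6.60e-10). Total_Hom was the lowest of the 6 groups for the first 4 of these genes and the highest for the other 4.

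The nuclear-to-total ratio asks whether the change between genotypes differs between the fractions, and was tested as an interaction. Xist was high in Nuclear_Het and Nuclear_Hom (516 and 504 CPM) and low in Total_Het and Total_Hom (0.624 and 1.25 CPM). In the ratio of Hom against Het, fraction and sex therefore cannot be told apart. For Hom against Het, Srsf5 had the largest shift of the ratio among the members (log2 -0.76 ± 0.04 SE, edgeR adjusted p = 5.06e-38). In all 11 of 63 members had a higher and 25 a lower ratio in Hom than in Het, against 31.7% and 31.9% of all genes tested, or 2 and 44 with library totals alone. After Srsf5 the ratio was lower for Hnrnpa1 (log2 -0.55 ± 0.15 SE, edgeR adjusted p = 7.01e-04), Prpf39 (log2 -0.52 ± 0.08 SE, edgeR adjusted p = 3.07e-09) and Srsf3 (log2 -0.44 ± 0.04 SE, edgeR adjusted p = 2.06e-17). The ratio was higher for Hnrnph3 (log2 0.58 ± 0.11 SE, edgeR adjusted p = 4.08e-06), Snrpd3 (log2 0.37 ± 0.06 SE, edgeR adjusted p = 2.20e-09), Snrpa1 and Prpf4 (log2 0.32 ± 0.08 SE, edgeR adjusted p = 2.62e-04). Snrpa1 was at 22.6, 23.3 and 22.2 CPM in Nuclear_WT, 21.4, 19.1 and 19.5 in Nuclear_Het, 21.5, 21.5 and 20.6 in Nuclear_Hom, 21.8, 21 and 20.6 in Total_WT, 23.7, 21.1 and 21.3 in Total_Het and 17.2, 20.1 and 18.2 in Total_Hom. Snrpa1 encodes a U2 snRNP protein, and Total_Het lay above Total_Hom while Nuclear_Het and Nuclear_Hom overlapped (log2 0.34 ± 0.10 SE, edgeR adjusted p = 0.00125). The calls of Snrpa1 (log2 0.13) and Prpf4 (0.11) were lost with library totals alone.

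For Hom against WT 14 members had a higher and 20 a lower ratio, against 28.4% and 27.7% of all genes tested, or 26 and 7 with library totals alone. Higher ratios were led by Hnrnph3 (log2 0.63 ± 0.11 SE, edgeR adjusted p = 1.64e-07), Hnrnpdl (log2 0.44 ± 0.05 SE, edgeR adjusted p = 6.55e-12), Hnrnpd (log2 0.44 ± 0.05 SE, edgeR adjusted p = 1.01e-15) and Prpf3 (log2 0.43 ± 0.09 SE, edgeR adjusted p = 2.70e-05). Lower ratios were led by Hnrnpa1 (log2 -0.46 ± 0.15 SE, edgeR adjusted p = 0.00446), Hnrnpf (log2 -0.43 ± 0.04 SE, edgeR adjusted p = 1.49e-16), Srsf3 (log2 -0.40 ± 0.04 SE, edgeR adjusted p = 3.97e-15) and Prpf38b (log2 -0.40 ± 0.06 SE, edgeR adjusted p = 4.51e-08). The call of Hnrnpa1 was lost with library totals alone (-0.32). Xist goes from low to high between Nuclear_WT and Nuclear_Hom and from high to low between Total_WT and Total_Hom, so this ratio and sex cannot be told apart.

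Other genes of the splicing pathway were followed in 4 lists. These lists were chosen with earlier results of these data known, so their counts describe the listed genes and are no independent test. Among 31 other splicing regulators, 17 rose and 4 fell in total Hom against Het (against 32.9% and 34.1% of all genes tested), with a median log2 change of 0.09, and the cold-inducible RNA-binding proteins Rbm3 and Cirbp stood far above the rest. Rbm3 stood at 67.3, 70.6 and 73.5 CPM in Nuclear_WT, 131, 139 and 136 in Nuclear_Het, 101, 95.4 and 98.5 in Nuclear_Hom, 78.3, 82.4 and 79.3 in Total_WT, 87.9, 93.4 and 89.3 in Total_Het and 310, 320 and 307 in Total_Hom. The Total_Hom libraries lay far above all others (log2 1.80 ± 0.03 SE, edgeR adjusted p = 8.02e-100). Cirbp was measured at 39.2, 38.6 and 35.6 CPM in Nuclear_WT, 64.4, 65 and 68.8 in Nuclear_Het, 65.3, 64 and 62 in Nuclear_Hom, 47.1, 41.3 and 46.1 in Total_WT, 57.9, 53.1 and 56.5 in Total_Het and 128, 128 and 131 in Total_Hom. Total_Hom was again apart (log2 1.22 ± 0.03 SE, edgeR adjusted p = 2.99e-68), and Nuclear_WT was the lowest group for both genes, as for Srsf5. Sfpq had levels of 171, 170 and 175 CPM in Nuclear_WT, 152, 156 and 160 in Nuclear_Het, 141, 138 and 144 in Nuclear_Hom, 128, 131 and 128 in Total_WT, 127, 133 and 125 in Total_Het and 185, 187 and 190 in Total_Hom. Sfpq, a paraspeckle protein that binds introns, was highest in Total_Hom, with Nuclear_WT next (log2 0.55 ± 0.03 SE, edgeR adjusted p = 5.81e-39). In nuclear RNA, Hom against Het, 1 of the 31 rose and 16 fell (against 21.4% and 21.8% of all genes tested, median log2 -0.07), Rbm3 among them (log2 -0.46 ± 0.04 SE, edgeR adjusted p = 7.62e-20).

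**Figure D5:**
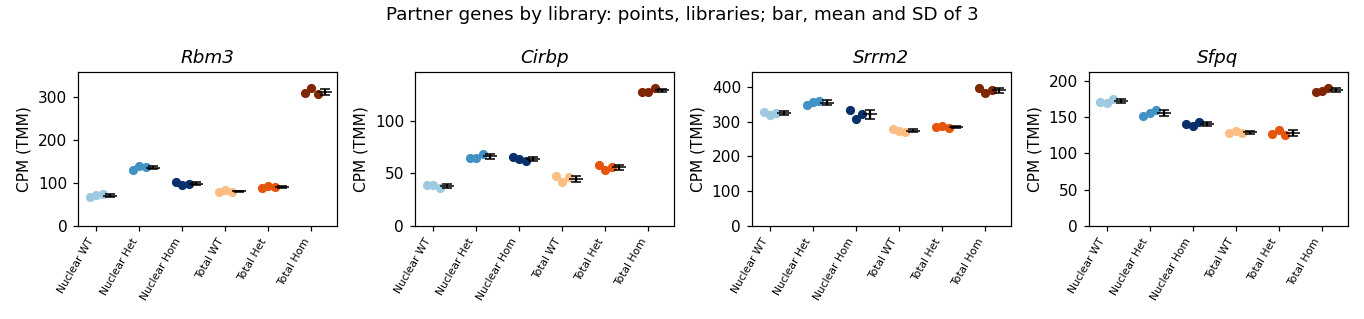
Level of 4 genes of the other lists in CPM (TMM scaled, axes from 0) for each library, by group; black marks give the mean and SD of 3 libraries. Total_Hom is the highest group for Rbm3, Cirbp, Srrm2 and Sfpq.

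Of 24 SR-related proteins and SR kinases, 12 rose and 2 fell in total Hom against Het (against 32.9% and 34.1% of all genes tested, median log2 0.08). In nuclear Hom against Het 1 rose and 11 fell (against 21.4% and 21.8%, median -0.07). Srrm2 was at 329, 318 and 326 CPM in Nuclear_WT, 348, 356 and 361 in Nuclear_Het, 334, 309 and 321 in Nuclear_Hom, 278, 272 and 270 in Total_WT, 285, 288 and 283 in Total_Het and 396, 383 and 391 in Total_Hom. Srrm2 encodes a scaffold of nuclear speckles, and Total_Hom was above every other group (log2 0.46 ± 0.02 SE, edgeR adjusted p = 1.65e-41). In the nuclear libraries it fell (log2 -0.15 ± 0.03 SE, edgeR adjusted p = 1.66e-06). The SR-related Pnisr rose in total Hom against Het (log2 0.53 ± 0.04 SE, edgeR adjusted p = 1.67e-20), while the SR protein kinase gene Srpk1 fell (log2 -0.58 ± 0.04 SE, edgeR adjusted p = 7.17e-28). Srpk1 stood at 55.1, 55.4 and 56.2 CPM in Nuclear_WT, 45.3, 45.5 and 49.8 in Nuclear_Het, 44.9, 40.6 and 43.5 in Nuclear_Hom, 47.5, 50.2 and 47 in Total_WT, 76.3, 74.1 and 72.6 in Total_Het and 50.4, 50.4 and 47.6 in Total_Hom. It was Total_Het that stood apart here, above all other libraries.

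Of 42 tested genes of other spliceosome proteins 12 rose and 11 fell in total Hom against Het, with a median of 0.00; the 23 called are 54.8%, against 67% of all genes tested. Lsm4 was measured at 46.6, 45.8 and 47.7 CPM in Nuclear_WT, 36.7, 38.2 and 35.9 in Nuclear_Het, 40, 41.8 and 42.2 in Nuclear_Hom, 35.7, 40.2 and 39.5 in Total_WT, 64.6, 58.1 and 57.5 in Total_Het and 33.2, 37.6 and 37.4 in Total_Hom. Lsm4, of the Sm-like ring on U6 snRNA, was high in Total_Het (log2 -0.73 ± 0.05 SE, edgeR adjusted p = 5.91e-28). Of 18 snRNP assembly and cap factors 4 fell in that comparison (22.2%, against the same 67%) and 14 did not pass. Ncbp2 had levels of 56.8, 58.1 and 57.1 CPM in Nuclear_WT, 52.5, 49 and 53.1 in Nuclear_Het, 52.5, 53.3 and 53.5 in Nuclear_Hom, 54.9, 53 and 52.8 in Total_WT, 52.4, 53.2 and 52.5 in Total_Het and 37.1, 40 and 40 in Total_Hom. Ncbp2, the small subunit of the nuclear cap-binding complex, was lowest in Total_Hom without overlap (log2 -0.43 ± 0.05 SE, edgeR adjusted p = 2.62e-15). In nuclear Hom against Het 7 of the 42 (16.7%) and 1 of the 18 (5.56%) passed, against 43.2% of all genes tested.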

How the data were processed

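A KAPA stranded mRNA kit was used on RNA prepared with TRIzol, per the labels' protocols. The authors deposited raw counts per gene symbol for 18 libraries, with no normalization. CASAVA, STAR 2.5.2b, featureCounts, DESeq2 and mm9 are named in the submitters' processing notes; the annotation and the strand setting are not given in the sources used here, so overlapping antisense genes could not be told apart. Gene length came from the deposited length column (another unit, bases), per the file headers.

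In the deposited column of Total_WT replicate 1 every gene held at least its 9-column nuclear total, so that total was subtracted gene by gene. Nuclear (15112 genes tested), total (15051) and all 18 libraries (15410) were fitted with edgeR 4.0.16 (R 4.3.3): filterByExpr, TMM, glmQLFit and glmQLFTest, with Benjamini-Hochberg adjustment over all genes tested and a threshold of 0.05. Named members were the 4 largest changes in each direction per comparison among those that passed and averaged 5 CPM or more, plus the highest member of each family. The values of 1 of these members are not reported here. DESeq2 1.42.0, other scalings and filters, the deposited column, a replicate block and leaving out each library were the alternatives. The members and lists were chosen with earlier results of these data known.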

Additional observations from a re-analysis of the deposited data

Results flagged for a closer look

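For the nuclear-to-total ratio the change between genotypes differed between the nuclear and the total libraries by the test of the difference itself (edgeR's quasi-likelihood interaction test on all 18 libraries, adjusted p under 0.05). Sex, as read from Xist and the Y-linked genes, also differed between these libraries in every genotype, so fraction and sex cannot be told apart in these results. In Hom against Het the ratio was higher on the log2 scale for Hnrnph3 (0.58), Snrpd3 (0.37), Snrpa1 (0.34) and Prpf4 (0.32). It was lower for Srsf5 (-0.76), Hnrnpa1 (-0.55), Prpf39 (-0.52) and Srsf3 (-0.44). In Hom against WT it was higher for Hnrnph3 (0.63), Hnrnpdl (0.44), Hnrnpd (0.44) and Prpf3 (0.43). It was lower for Hnrnpa1 (-0.46), Hnrnpf (-0.43), Srsf3 (-0.40) and Prpf38b (-0.40).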

How the results depend on the processing

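Of 3164 alternative values for the results named, 3097 kept their direction and side of the threshold, 61 lost the call (19 of them on leaving out a library) and 6 turned. All 6 came from scaling by library totals alone, under which the median log2 change of all genes was -0.23 to 0.24 over the comparisons, against -0.02 to 0.04 with TMM: in nuclear Het against WT Ncbp2 went to 0.03, in total Het against WT Prmt5 went to -0.01, in nuclear against total RNA of WT Wdr77 went to 0.00, and in nuclear against total RNA of Het Srsf4 went to 0.02, Prpf8 to 0.08 and Prmt5 to 0.01. The members called in nuclear against total RNA of Het became 58. Leaving out single libraries gave 27 to 31 members called in nuclear Hom against WT, 27 to 35 in nuclear Het against WT, 17 to 21 in nuclear Hom against Het, 32 to 37 in total Hom against WT, 33 to 37 in total Het against WT and 34 to 39 in total Hom against Het. The cause was not tested. The labels do not say whether replicate numbers pair the libraries. In no comparison did all 3 pairs correlate above 0.1, which cannot settle it with 3 libraries a group. With the replicate block 33, 35 and 20 members were called in nuclear Hom against WT, Het against WT and Hom against Het, and 38, 39 and 41 in total RNA.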
